A study of Arabidopsis thaliana with 30 samples.

Results

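The genes described here are the 42 Arabidopsis thaliana genes for the synthesis of glucosinolates and of camalexin that were chosen by name, out of 37686 genes in the deposited expression tables. They comprise 20 genes of methionine-derived (aliphatic) glucosinolates, 14 genes of tryptophan-derived (indole) glucosinolates and 3 genes of camalexin synthesis. A further 5 genes were grouped here as a core pathway shared by both branches, a label that was not tested for each gene. All 42 were found in the tables by locus identifier. Of these, 41 reached at least 1 TPM (transcripts per 1000000 transcripts) in at least 2 libraries and were tested. The remaining member, MYB122 (AT1G74080), an activator of indole glucosinolate genes, was at or below 0.35 TPM in each of the 30 libraries.

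The study followed detached leaves that regenerate roots from the cut. Col-0 wild-type seedlings were grown for 12 d at 22 °C in 16 h light and 8 h dark on MS medium that held 1% sucrose, and blades of the first rosette leaves were then severed where the blade meets the petiole and placed on B5 medium without sucrose in 24 h light at the same temperature. RNA of the wounded end was extracted with TRIzol and sequenced. The groups are leaves cultured with NPA (N-1-naphthylphthalamic acid, an inhibitor of polar auxin transport) for 6 h, 12 h, 24 h, 2 d, 3 d, 4 d or 5 d, leaves cultured without NPA (mock) for the same 7 times, and leaves at time 0 (T0), taken 0 min after detachment. Each of the 15 groups has 2 libraries. The labels used here give no NPA dose. Whether the libraries of a group came from separate leaves or cultures is not stated, and p-values therefore speak of the spread among these libraries alone, which may be technical.

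Glucosinolates are sulfur-rich glucosides of the mustard family that are stored in the leaf and cleaved by myrosinases when tissue is broken. Aliphatic ones are built by lengthening the side chain of methionine in the plastid, converting the product to an aldoxime, and assembling the core structure by adding sulfur, glucose and sulfate. Indole ones and the antimicrobial compound camalexin both start from tryptophan, which CYP79B2 and CYP79B3 convert to indole-3-acetaldoxime, a compound that can also feed auxin synthesis. MYB28, MYB29 and MYB76 activate the aliphatic genes, and MYB34, MYB51 and MYB122 activate the indole genes.

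Values are TPM as the authors deposited them, a measure per transcript length, so levels of different genes can be set side by side. TPM keeps no read count, so the sequencing depth behind each value is unknown. The number of genes at 1 TPM or more ranged between 17201 and 19288 across the libraries. Differences are log2(TPM + 1) differences of group means ± standard error from limma, fitted over 20654 genes with all 30 libraries, with p-values adjusted by Benjamini-Hochberg over all genes of a comparison. "Rose", "fell", "higher" and "lower" as calls mean an adjusted p under 0.05. On this scale a change of a gene with low values is understated. RNA came from mixed tissue, where fewer cells of a type and less RNA per cell cannot be told apart.

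The T0 libraries stood apart from each other. Across genes they correlated at r = 0.888, against 0.964 to 0.988 for the other groups. The fit gives each gene a common estimate of spread over all groups. Standard errors and p-values against T0 may therefore understate the spread at T0. Counts from the fit on only the libraries compared stand at the end. On the log2(TPM + 1) scale, T0 replicate 2 was more than 1 above replicate 1 for 11 of the 41 members and more than 1 below it for 0. The morning clock gene CCA1 was at 318 and 0.13 TPM and the evening clock gene TOC1 at 2.25 and 84.3 TPM in T0 replicates 1 and 2, and the jasmonate synthesis gene LOX2 was at 6.03 and 142 TPM. Clock genes also differed between replicates in culture. CCA1 was at 8.45 and 136 TPM in NPA leaves at 12 h, against 114 and 14.4 TPM in mock leaves, and at 2 d it was at 2.73 and 24.1 TPM in NPA leaves, against 2.18 and 22.4 TPM in mock leaves. The part of these differences in the results was not tested. Results against T0 are therefore also given as those called in both of 2 fits that each leave out 1 T0 library. Summed leaf mesophyll markers (RBCS1A, CAB1, LHCA1 and PSBO1, 4 of 4 detected) were at 30061 to 62324 TPM in NPA leaves, 27799 to 57611 TPM in mock leaves and 52423 to 52865 TPM at T0, which was the check of the labelled tissue. Root cap and root hair markers stayed at or below 1.54 TPM in sum in each library.

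**Figure D1:**
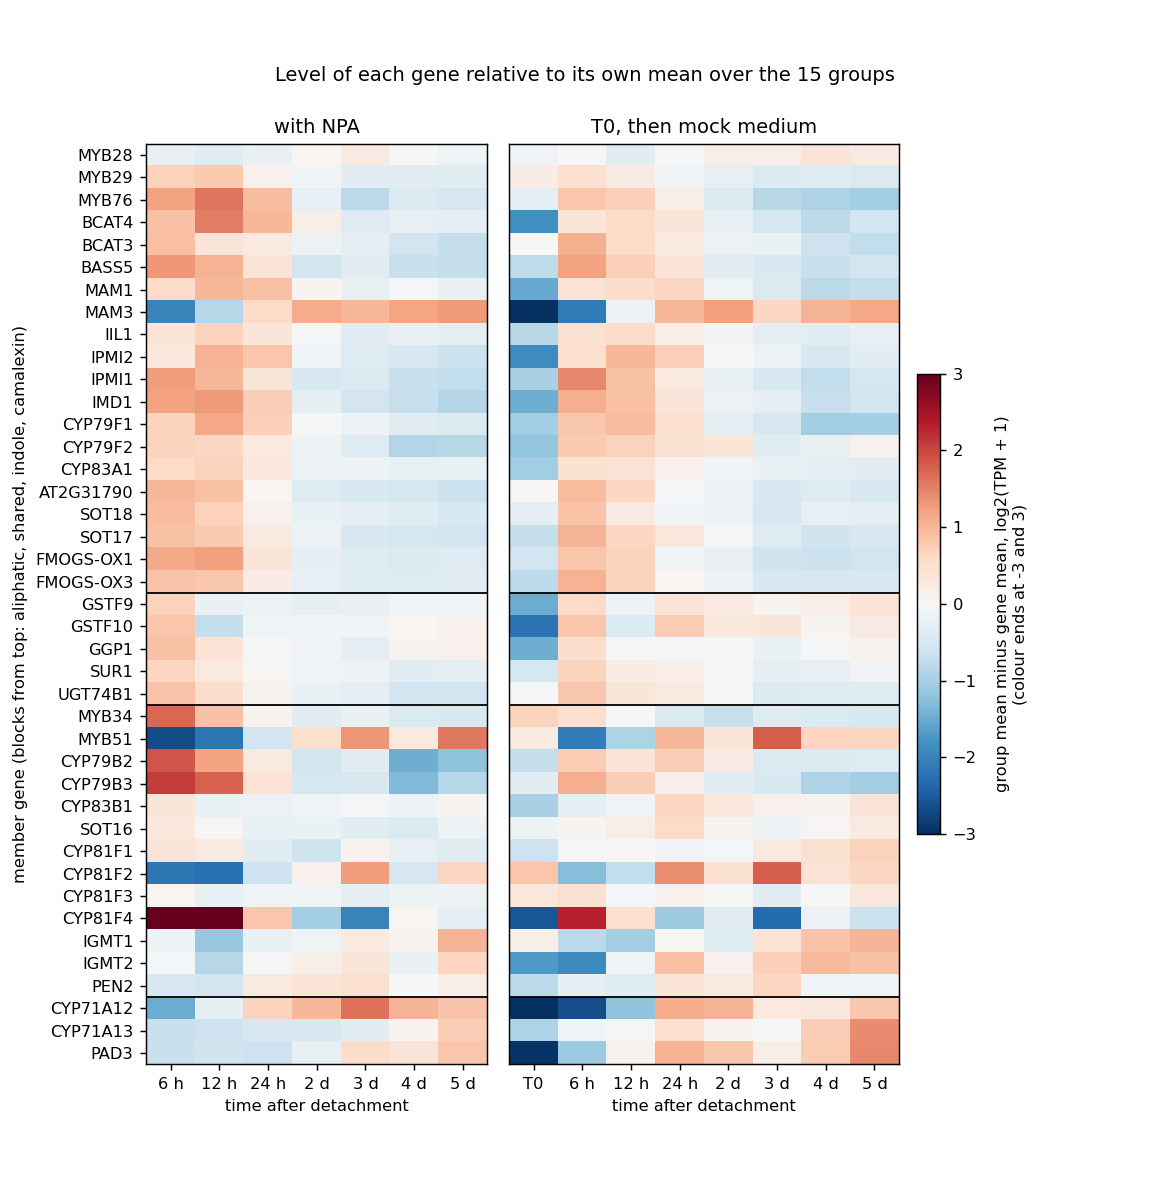
Heat map of the 41 tested members (rows, in blocks by branch) in the 15 groups (columns, NPA at the left, T0 and mock at the right), with the group mean of log2(TPM + 1) minus the gene's mean over groups as colour. Most aliphatic rows are reddest at 6 h and 12 h with and without NPA, whereas MAM3, CYP71A12 and PAD3 are bluest at T0 and red at later times.

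Genes of the aliphatic branch were high early in culture and fell back later. In the first 6 h without NPA, 18 of the 20 aliphatic genes rose and 0 fell relative to T0, with a median log2 difference of 1.78 over the 20, against 0.21 over all genes tested. The only members without a call were the activators MYB28 (AT5G61420) and MYB29 (AT5G07690). Across all genes tested, 26.5% rose and 6.22% fell at 6 h. At 12 h 17 aliphatic genes rose (all genes 17.0% higher and 7.53% lower), at 24 h 13 (32.5% and 8.98%), at 2 d 9 (33.4% and 8.94%), at 3 d 7 with 1 lower (39.9% and 9.35%), at 4 d 4 with 2 lower (39.8% and 8.74%), and at 5 d 8 with 2 lower (42.4% and 10.9%). Aliphatic genes thus rose more often than genes in general up to 24 h, and no more often from 3 d on. Their median log2 difference to T0 was 1.78, 1.46, 1.10, 0.69, 0.41, 0.26 and 0.36 in the order of the 7 times, while that of all genes lay between 0.07 and 0.37. The late medians depend on the T0 library: at 3 d the median was 0.25 without T0 replicate 1 and 0.47 without T0 replicate 2, at 4 d 0.03 and 0.53, and at 5 d 0.13 and 0.49.

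The summed level of the 20 aliphatic genes shows the same course in single libraries. It was 1109 and 1578 TPM at T0, 4657 and 3561 TPM at 6 h, 4219 and 3494 TPM at 12 h, 3131 and 3121 TPM at 24 h, 1738 and 3113 TPM at 2 d, 1977 and 2024 TPM at 3 d, 1685 and 1891 TPM at 4 d, and 1823 and 1895 TPM at 5 d without NPA. Each mock library up to 24 h was above each T0 library by a wide margin, and those from 3 d on were closer to T0 than to 6 h. At 2 d the replicates disagreed: replicate 2 was above replicate 1 for each of the 20 aliphatic genes, with a median gap of 0.96 on the log2(TPM + 1) scale and a gap over 1 for 8 of them. At that time CCA1 also differed between the replicates, as given above, and its part was not tested. With NPA the sum was 3751 and 4686 TPM at 6 h, 4437 and 5083 TPM at 12 h, 4043 and 3248 TPM at 24 h, 2026 and 2764 TPM at 2 d, 1995 and 2136 TPM at 3 d, 2428 and 1690.4 TPM at 4 d, and 2225 and 1644 TPM at 5 d. It overlapped the mock sums at 6 h and from 2 d on and lay above them at 12 h and 24 h.

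The decline can be read without T0. Between 6 h and 5 d without NPA, 15 of the 20 aliphatic genes fell and 1 rose, with a median log2 difference of -1.28, against 0.11 over all genes, of which 13.3% fell and 25.5% rose. With NPA, 16 fell and 1 rose between 6 h and 5 d, with a median of -1.29, against -0.01 over all genes, of which 19.1% fell and 19.0% rose. These 2 comparisons share no library. Of the 20, 13 had their highest mock mean at 6 h and 4 at 12 h, and with NPA 8 peaked at 6 h and 10 at 12 h.

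**Figure D2:**
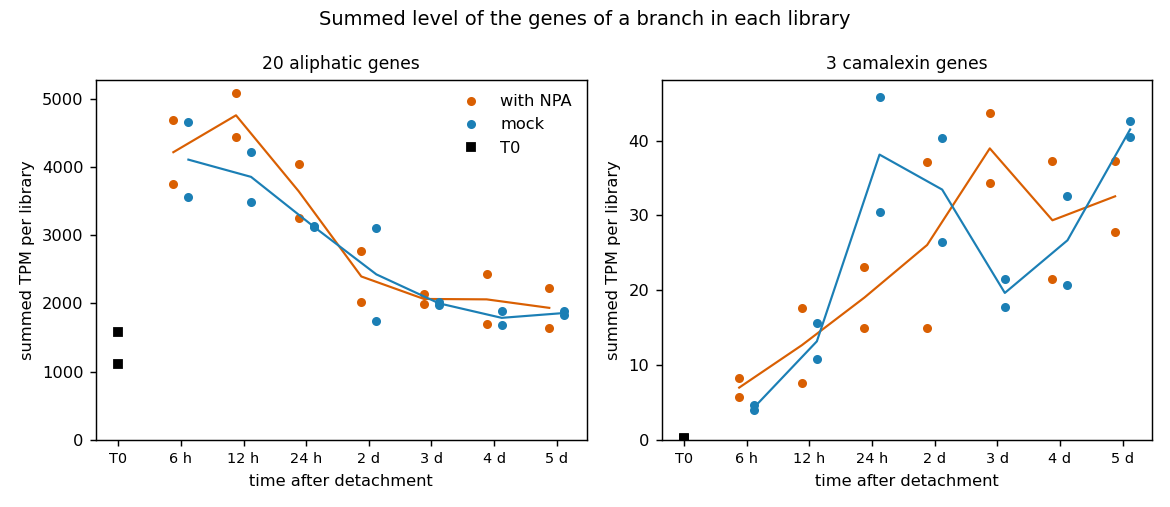
Summed TPM of the members of a branch (y axis, TPM) against time in culture (x axis) in each library, with NPA and mock leaves in separate colours, T0 at the left and lines through group means, for the aliphatic and the camalexin genes. The aliphatic sum is highest at 6 h and 12 h, and the camalexin sum, at 0.14 and 0.18 TPM at T0, lies between 4.02 and 45.9 TPM in mock leaves.

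The early rise covered each step of side-chain elongation. BCAT4 (AT3G19710), which removes the amino group of methionine at the start of elongation, was at 300.1 and 178 TPM in mock leaves at 6 h, against 27.5 and 86.3 TPM at T0 (log2 difference 2.22 ± 0.46, adjusted p 0.00145). IMD1 (AT5G14200), an isopropylmalate dehydrogenase, was at 607 and 457 TPM at 6 h, against 65.1 and 121 TPM at T0 (2.55 ± 0.35, adjusted p 3.8e-05). IPMI1 (AT3G58990), a small subunit of the isomerase, was at 365 and 275 TPM at 6 h, against 46.7 and 74.6 TPM at T0 (2.41 ± 0.34, adjusted p 4.3e-05). For all 3 the groups did not overlap, and the T0 libraries themselves differed by less than the groups did. A lack of overlap between pairs of libraries is common, and at 6 h it held for 34 of the 41 tested members. Its share among all genes is not given here. The other isomerase genes rose at 6 h as well: IPMI2 (AT2G43100), a second small subunit, to 239 and 190.3 TPM, against 28.2 and 57.7 TPM at T0 (2.37 ± 0.37), and IIL1 (AT4G13430), the large subunit, to 447 and 347 TPM, against 149 and 173 TPM at T0 (1.29 ± 0.21). The keto acid transporter gene BASS5 (AT4G12030) rose to 123 and 82.3 TPM at 6 h, against 22.2 and 28.8 TPM at T0 (1.95 ± 0.30). The 3 genes again had no overlap between groups, and BASS5 came back to 25.2 and 33.0 TPM at 5 d. The aminotransferase gene BCAT3 (AT3G49680) was at 271 and 228 TPM at 6 h. BCAT3, which acts late in elongation and also in leucine metabolism, ended below T0: it was at 73.3 and 68.7 TPM at 5 d, against 96.3 and 149 TPM at T0 (-0.75 ± 0.15, adjusted p 0.000541).

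MAM1 (AT5G23010) and MAM3 (AT5G23020), which encode the methylthioalkylmalate synthases that set how far the side chain is lengthened, followed different courses. MAM1 was at 539 and 363 TPM in mock leaves at 6 h, against 69.5 and 185 TPM at T0 (1.95 ± 0.37, adjusted p 0.000621), and it was at 223 and 176 TPM at 5 d. MAM3, known for making longer side chains, was listed at 0 and 0.02 TPM at T0 and was at 14.8 and 2.56 TPM at 6 h, 36.0 and 21.9 TPM at 12 h, 70.3 and 60.0 TPM at 24 h, 49.0 and 116 TPM at 2 d, 49.3 and 50.4 TPM at 3 d, 53.9 and 78.1 TPM at 4 d and 68.1 and 75.7 TPM at 5 d without NPA. None of the steps of MAM3 between neighbouring times after 12 h was called without NPA. MAM3 thus stayed above its 6 h level while most aliphatic genes declined: between 6 h and 5 d its log2 difference was 3.28 ± 0.55 without NPA (adjusted p 0.00015) and 3.25 ± 0.55 with NPA (adjusted p 0.000206), where that of MAM1 was -1.16 ± 0.37 and -0.79 ± 0.37. The call for MAM1 in mock leaves was lost without mock replicate 1 of 6 h (adjusted p 0.148) or mock replicate 2 of 5 d (adjusted p 0.12). The share of MAM3 in the summed MAM1 and MAM3 level was 19.6% and 23.9% in NPA leaves and 23.4% and 30.1% in mock leaves at 5 d, against 0% and 0.0108% at T0. MAM3 was the only member of the branch that rose over this interval, in both conditions.

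MAM1 and MAM3 lie next to each other on chromosome 5, 11144 bases apart and on the same strand, with no annotated protein-coding gene between them, and their coding sequences are 78.9% identical. Reads of such neighbours can be divided between them in counting, so their separate levels carry that uncertainty.

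Core-structure and side-chain genes of the branch rose with the elongation genes. CYP79F1 (AT1G16410), which converts chain-elongated methionine to the aldoxime, was at 326 and 253 TPM in mock leaves at 6 h, against 55.1 and 114 TPM at T0 (1.84 ± 0.37, adjusted p 0.00117), and at 80.3 and 81.3 TPM at 5 d, where the difference to T0 was 0.02 ± 0.37. Its neighbour CYP79F2 (AT1G16400), 1183 bases away and 91.2% identical in coding sequence, was at 21.0 and 13.8 TPM at 6 h, against 5.10 and 2.57 TPM at T0 (1.95 ± 0.39, adjusted p 0.00103). In each library CYP79F2 stood far below CYP79F1, and reads of such close copies may be divided between them. CYP83A1 (AT4G13770), the next enzyme, was at 514 and 405 TPM at 6 h, against 141 and 184 TPM at T0 (1.49 ± 0.21, adjusted p 4.8e-05), and was at 253 and 283 TPM at 5 d (0.73 ± 0.21, adjusted p 0.00784), where the call was lost without T0 replicate 1, without mock replicate 2 of 5 d, and with TMM factors or quantiles. The sulfotransferase genes that finish the core rose at 6 h too, SOT17 (AT1G18590) to 130.4 and 107 TPM, against 33.4 and 36.7 TPM at T0 (1.73 ± 0.25), and SOT18 (AT1G74090) to 213 and 162 TPM, against 77.3 and 91.4 TPM at T0 (1.14 ± 0.21). FMOGS-OX1 (AT1G65860) and FMOGS-OX3 (AT1G62560), which oxidise the side-chain sulfur, rose to 63.5 and 52.5 TPM and to 120.4 and 96.9 TPM, against 20.7 and 21.4 TPM and 29.8 and 29.2 TPM at T0. By 5 d all 4 had fallen from their 6 h level in mock leaves, by 1.11 to 1.51 on the log2 scale. The glucosyltransferase gene AT2G31790 was at 231 and 227 TPM at 6 h, against 131 and 113 TPM at T0 (0.91 ± 0.14, adjusted p 8.3e-05), but fell to 78.1 and 92.4 TPM at 5 d (-0.52 ± 0.14 against T0, adjusted p 0.00391), a call lost without mock replicate 1 of 5 d.

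MYB28 followed another course than the activators MYB29 and MYB76. MYB28 was at 86.1 and 79.2 TPM in mock leaves at 6 h, against 73.7 and 78.8 TPM at T0 (0.11 ± 0.13, adjusted p 0.537), a difference no larger than its error. At 5 d it was at 88.8 and 113 TPM (0.39 ± 0.13, adjusted p 0.0171), a call that ended with TMM factors, with quantiles, on leaving out T0 replicate 1 (adjusted p 0.0845) and on leaving out mock replicate 2 of 5 d (adjusted p 0.245). MYB29 was at 38.9 and 36.0 TPM at 6 h, against 35.5 and 27.3 TPM at T0 (0.26 ± 0.31, adjusted p 0.568), and fell to 17.5 and 20.9 TPM at 5 d, against 38.9 and 36.0 TPM at 6 h (-0.93 ± 0.31, adjusted p 0.0256), a call that ended when any 1 of these 4 libraries was left out (adjusted p 0.0551 to 0.139). MYB76 (AT5G07700), at a lower level, was at 6.78 and 4.73 TPM at 6 h, against 1.36 and 3.00 TPM at T0 (1.12 ± 0.32, adjusted p 0.0121), a call that ended on leaving out T0 replicate 1 (adjusted p 0.14) or mock replicate 1 of 6 h (adjusted p 0.117) and with quantiles (adjusted p 0.0705). It fell to 0.80 and 0.83 TPM at 5 d, against 6.78 and 4.73 TPM at 6 h (-1.88 ± 0.32, adjusted p 0.000149). MYB76 follows MYB29 on chromosome 5 at a distance of 1442 bases, with 70.2% identical coding sequence.

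Likeness was measured as Pearson's r of log2(TPM + 1) with the mean of the other aliphatic members over the 14 group means of cultured leaves, as a description without a test, since all share the libraries. MYB76 had r = 0.96 and MYB29 r = 0.95. MYB28 had r = -0.79 and MAM3 r = -0.84, and each of the other 18 lay between 0.83 and 0.99. Outside the branch, CYP79B3 (AT2G22330) and UGT74B1 (AT1G24100) each had r = 0.95, SUR1 (AT2G20610) 0.89, CYP79B2 (AT4G39950) 0.87, MYB34 (AT5G60890) 0.78 and MYB51 (AT1G18570) -0.87.

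**Figure D3:**
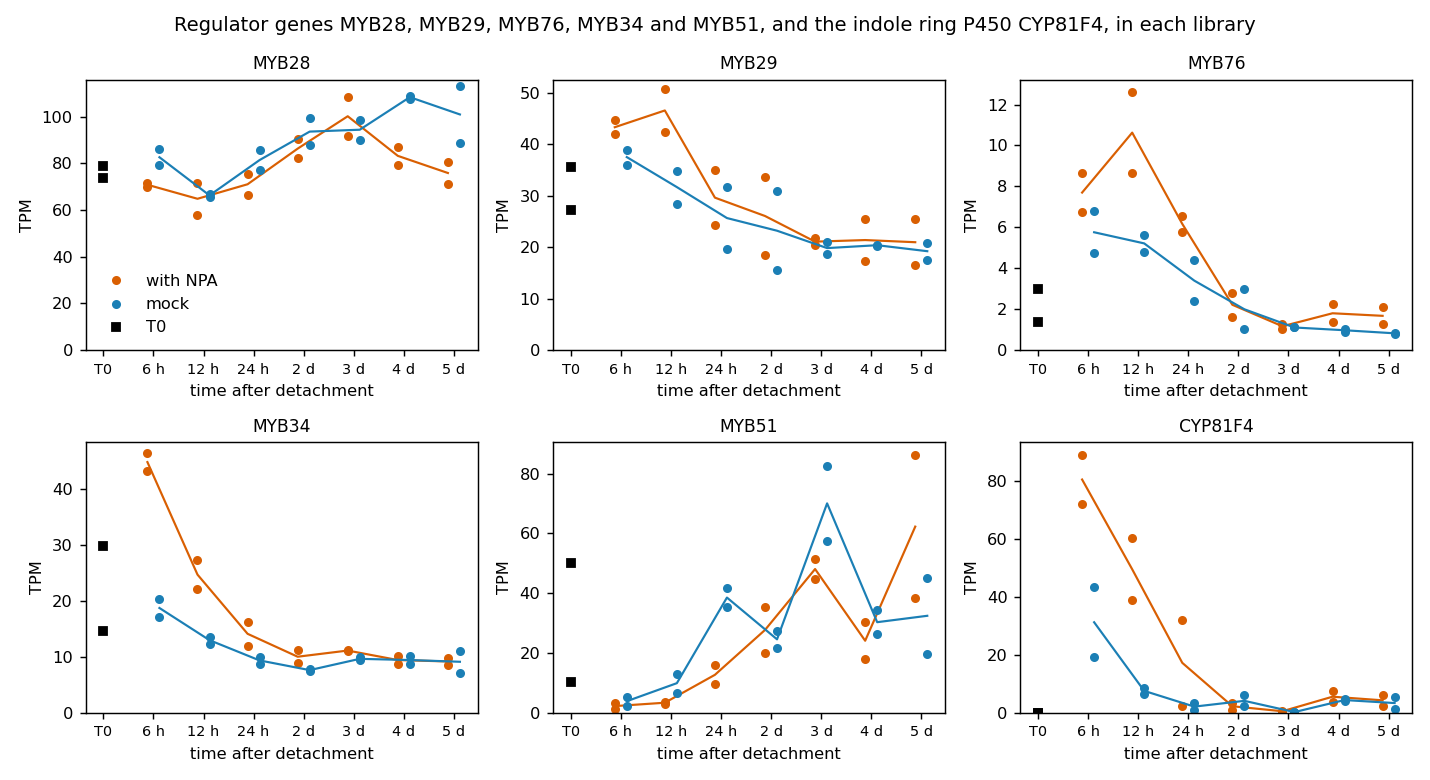
TPM (y axis) of the 5 tested MYB activators and of CYP81F4 (panels) against time after detachment (x axis), as points per library for NPA leaves, mock leaves and T0, with lines through group means. MYB29, MYB76, MYB34 and CYP81F4 are highest at 6 h or 12 h with NPA, MYB28 stays between 57.9 and 113 TPM, and MYB51 is lowest at 6 h.

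The 5 genes of the shared core rose at 6 h in all cases. GSTF9 (AT2G30860) and GSTF10 (AT2G30870) encode glutathione transferases placed at the step that adds glutathione, GGP1 (AT4G30530) the peptidase that trims the conjugate, SUR1 the C-S lyase and UGT74B1 the glucosyltransferase. GSTF9 was at 2874 and 2135 TPM in mock leaves at 6 h, against 321 and 1055 TPM at T0 (2.09 ± 0.34, adjusted p 0.000197), and had the highest level of all members. GSTF10 was at 1728 and 1511 TPM at 6 h, against 95.5 and 404 TPM at T0 (3.03 ± 0.43, adjusted p 4.5e-05). GGP1 was at 602 and 483 TPM at 6 h, against 118 and 154 TPM at T0 (1.99 ± 0.15, adjusted p 4.3e-08), the member with the smallest p-value of that comparison. GSTF9 and GSTF10 lie 897 bases apart with 77.6% identical coding sequence.

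The 5 genes then split. GSTF9, GSTF10 and GGP1 rose at each of the 7 times relative to T0, and at 5 d their log2 differences were 1.91 ± 0.34, 2.47 ± 0.43 and 1.58 ± 0.15. The size of the rise at 12 h depends on the T0 library. So do the calls: most of those of shared genes at 12 h did not hold in both fits without 1 T0 library. At that time the median log2 difference of the 5 shared genes was 0.54 without T0 replicate 1 and 1.69 without T0 replicate 2. GSTF9 was at 1387 and 1587 TPM in mock leaves at 12 h, against 321 and 1055 TPM at T0. SUR1 was at 224 and 165 TPM at 6 h, against 72.2 and 97.4 TPM at T0, and UGT74B1 at 151 and 114 TPM, against 64.2 and 82.0 TPM. SUR1 rose between 6 h and 2 d and UGT74B1 at 6 h only, with a lower value called at 3 d for UGT74B1 (adjusted p 0.0392), which ended on leaving out T0 replicate 2 (adjusted p 0.298) or either mock library of 3 d. The SUR1 calls at 12 h, 24 h and 2 d ended on leaving out T0 replicate 1 (adjusted p 0.0756, 0.089 and 0.363), at 12 h also on leaving out mock replicate 1, at 2 d also on leaving out mock replicate 2, and at 24 h and 2 d with TMM factors. Between 6 h and 5 d, GGP1, SUR1 and UGT74B1 fell without NPA and with NPA, most for UGT74B1, at -1.17 ± 0.14 without NPA (adjusted p 5.3e-06) and -1.41 ± 0.14 with NPA (adjusted p 1.1e-06). The fall of GGP1 without NPA was not called on leaving out mock replicate 1 of 6 h (adjusted p 0.311) or mock replicate 2 of 5 d (adjusted p 0.267). UGT74B1 was at 54.1 and 46.5 TPM in NPA leaves and 58.4 and 57.2 TPM in mock leaves at 5 d, against 64.2 and 82.0 TPM at T0.

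Letters of known binding motifs were counted in the 250 bases before the start of each gene, on both strands. CACGTG, the G-box read by MYC factors among others, was in 3 of the 42 windows (7.14%), against 6.49% of the windows of 27443 protein-coding genes. TTGACC or TTGACT, the W-box read by WRKY factors, was in 10 of 42 (23.8%), against 28.4%. AAAATATCT, the evening element of the clock, was in 0 of 42, against 2.36%. No overlap between motifs was removed. The 3 stretches with a G-box are shown with the motif in capitals, since they belong to genes that rose at 6 h.
CYP83A1, chr4:7992455-7992484, minus strand: tattaattctaaCACGTGaggtttcgtaag
IIL1, chr4:7808005-7808034, minus strand: agtatgaagtatCACGTGattaaacgttta
SUR1, chr2:8880473-8880502, minus strand: taatttttgtggCACGTGattttagttttg
The shares in the members lay near those in all genes for the G-box and the W-box.

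Indole genes went several ways. Relative to T0, 4 of the 13 tested rose at 6 h (CYP79B2, CYP79B3, CYP83B1 (AT4G31500) and CYP81F4 (AT4G37410)) and 2 fell (MYB51 and CYP81F2 (AT5G57220)). The call of CYP83B1 ended on leaving out T0 replicate 1 (adjusted p 0.0594) or mock replicate 1 of 6 h (adjusted p 0.1). At 12 h 4 rose and 0 fell, at 24 h 5 and 1, at 2 d 4 and 1, at 3 d 5 against 2, at 4 d 4 against 1. At 5 d 5 rose and 2 fell. From 24 h on these shares of higher calls lay near or below those of all genes at the same times, which are given above. At each of these times fewer of the higher calls held in both fits without 1 T0 library. The median log2 difference of the 13 was -0.01 without T0 replicate 1 and 0.71 without T0 replicate 2 at 2 d. It was 0.20 and 0.44 at 3 d, -0.29 and 0.68 at 4 d, and 0.03 and 0.86 at 5 d, where all genes had 0.25 and 0.49.

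The entry enzymes rose at 6 h, and they and the activator MYB34 were lower at 5 d than at 6 h. CYP79B2 was at 80.5 and 77.2 TPM in mock leaves at 6 h, against 34.4 and 21.7 TPM at T0 (1.49 ± 0.26, adjusted p 0.000323), and was at 62.6 and 95.7 TPM at 24 h. CYP79B3 was at 99.3 and 74.9 TPM at 6 h, against 32.2 and 31.6 TPM at T0 (1.41 ± 0.28, adjusted p 0.00106), and fell below T0 at 5 d, at 18.4 and 19.3 TPM (-0.73 ± 0.28, adjusted p 0.0377), a call that ended when any 1 of the 4 libraries was left out (adjusted p 0.0783 to 0.126). MYB34 was at 17.2 and 20.4 TPM at 6 h, against 29.9 and 14.7 TPM at T0 (-0.16 ± 0.24, adjusted p 0.649), and fell to 7.12 and 11.1 TPM at 5 d (-1.15 ± 0.24, adjusted p 0.00062). All 3 fell between 6 h and 5 d in mock leaves, with log2 differences of -1.17 ± 0.26 for CYP79B2, -2.14 ± 0.28 for CYP79B3 and -0.99 ± 0.24 for MYB34, the last not called without mock replicate 1 of 5 d (adjusted p 0.0703).

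CYP83B1 and SOT16 had their highest mock mean at 24 h, PEN2 at 3 d and IGMT2 at 4 d, whereas with NPA CYP83B1 and SOT16 were highest at 6 h. CYP83B1, which oxidises the indole aldoxime, was at 355 and 446 TPM in mock leaves at 24 h, against 114 and 145 TPM at T0 (1.62 ± 0.18, adjusted p 2.2e-06), and at 382 and 287 TPM at 5 d. SOT16 (AT1G74100), the sulfotransferase of the branch, was at 159.6 and 189 TPM at 24 h, against 89.6 and 119.7 TPM at T0 (0.74 ± 0.15, adjusted p 0.000724). IGMT2 (AT1G21120), a methyltransferase of the indole ring, was at 17.9 and 19.2 TPM at 24 h, against 0.36 and 6.40 TPM at T0 (2.62 ± 0.59, adjusted p 0.00191), with adjusted p 0.0515 when T0 replicate 1 was left out. Its neighbour IGMT1 (AT1G21100) had no call at any time, and its T0 libraries were at 0.52 and 19.0 TPM, wider apart than the groups. PEN2 (AT2G44490), an atypical myrosinase that acts on indole glucosinolates, rose at 24 h and 3 d, with T0 libraries at 33.0 and 168 TPM, and without T0 replicate 1 its adjusted p at 24 h was 0.982. Leaving out either mock library of 24 h also ended that call. At 3 d the mean of PEN2 in mock leaves was 202 TPM, against 168 TPM in T0 replicate 2, so the size of that rise also depends on the T0 library.

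The ring-modifying P450 genes differed in timing. CYP81F4, which acts at position 1 of the ring, was at 43.4 and 19.1 TPM in mock leaves at 6 h, against 0 and 0.05 TPM at T0 (4.86 ± 0.78, adjusted p 0.000151), and at 0.83 and 3.36 TPM at 24 h. CYP81F2, which acts at position 4, moved the other way: it was at 2.65 and 1.60 TPM at 6 h, against 5.29 and 26.9 TPM at T0 (-2.11 ± 0.66, adjusted p 0.0221), and at 21.8 and 15.6 TPM at 24 h. Its T0 libraries differed by more than 2-fold, and leaving out T0 replicate 2 ended the lower call at 6 h (adjusted p 0.245), as did leaving out either mock library of 6 h. CYP81F1 (AT4G37430) rose late, to 7.41 and 12.4 TPM at 5 d, against 4.86 and 2.09 TPM at T0 (1.32 ± 0.29, adjusted p 0.00102), and CYP81F3 (AT4G37400) was at or below 1.21 TPM in each library. CYP81F1, CYP81F3 and CYP81F4 are neighbours on chromosome 4, and reads of such neighbours can be divided between them in counting. The locus AT4G37409 overlaps the 250 bases before the start of CYP81F4.

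MYB51, the activator known for its response to pathogens and wounding, was lowest at 6 h. It was at 5.40 and 2.29 TPM in mock leaves at 6 h, against 10.2 and 50.1 TPM at T0 (-2.38 ± 0.59, adjusted p 0.00534), and at 82.6 and 57.5 TPM at 3 d, its highest mock time. Leaving out T0 replicate 2 ended its lower call (adjusted p 0.0807), and so did leaving out mock replicate 2 of 6 h (adjusted p 0.0614). Between 6 h and 5 d it rose by 2.75 ± 0.59 on the log2 scale without NPA (adjusted p 0.00132) and by 4.25 ± 0.59 with NPA (adjusted p 3.1e-05). MYB34 and MYB51 thus stood in opposite order early and late: MYB34 was the higher of the pair in each of the 4 libraries at 6 h, and MYB51 in each of the 4 at 5 d.

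**Figure D4:**
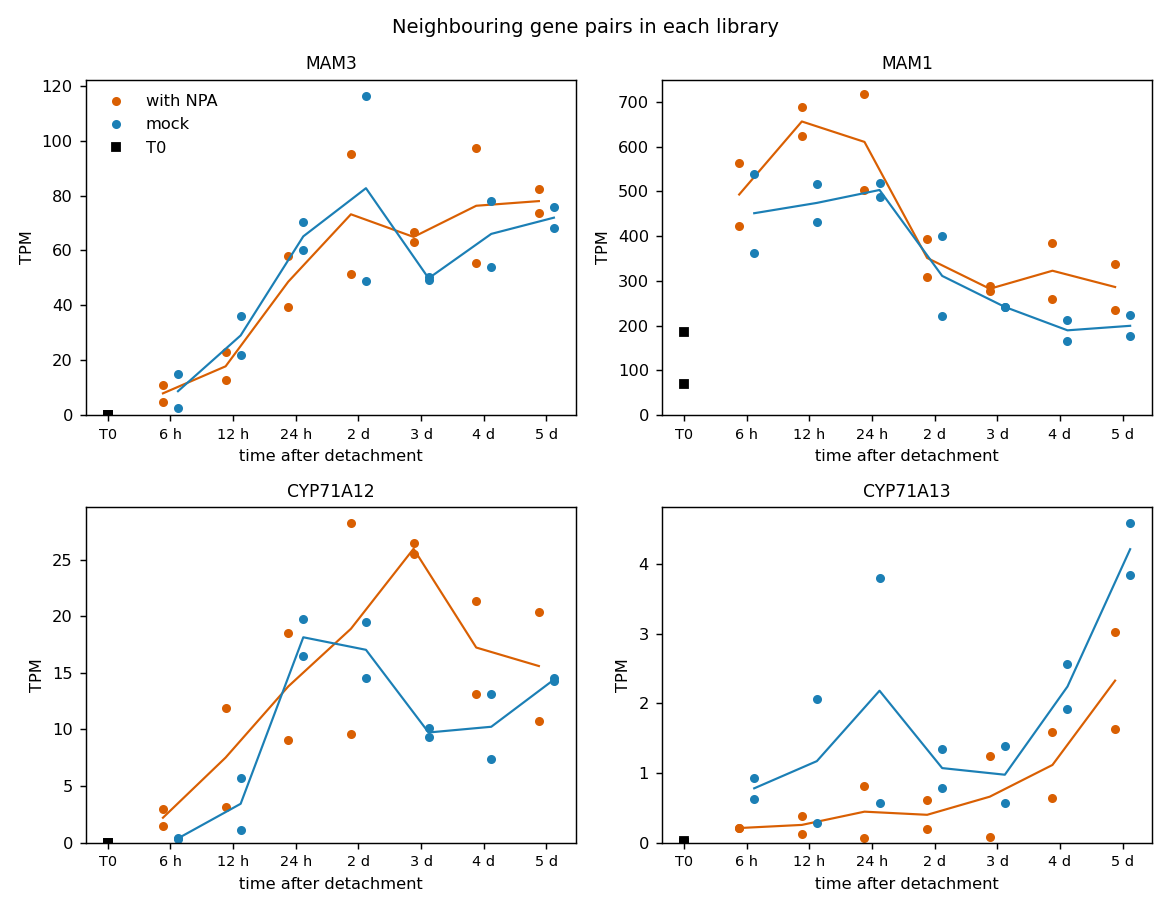
TPM (y axis) of the neighbouring pairs MAM3 and MAM1, and CYP71A12 and CYP71A13 (panels), against time after detachment (x axis), as points per library for NPA leaves, mock leaves and T0, with lines through group means. MAM3 and CYP71A12 are at or near 0 TPM at T0 and rise in culture, while MAM1 peaks within the first 24 h of culture and CYP71A13 stays at or below 4.58 TPM.

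The 3 camalexin genes were at or near 0 before culture and higher later. They summed to 0.14 and 0.18 TPM at T0, and in mock leaves to 4.02 and 4.64 TPM at 6 h, 10.7 and 15.6 TPM at 12 h, 30.4 and 45.9 TPM at 24 h, 26.5 and 40.4 TPM at 2 d, 21.4 and 17.8 TPM at 3 d, 20.7 and 32.6 TPM at 4 d and 42.6 and 40.4 TPM at 5 d. No mock library overlapped T0. The number of the 3 that rose was 1, 2, 3, 2, 2, 3 and 3 in the order of the 7 times, beside the shares of all genes given above.

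PAD3 (AT3G26830), which makes camalexin in the last step, was at 2.66 and 3.68 TPM in mock leaves at 6 h, against 0.11 and 0.18 TPM at T0 (1.85 ± 0.33, adjusted p 0.000401), and at 13.3 and 22.3 TPM at 24 h. CYP71A12 (AT2G30750), which turns indole-3-acetaldoxime into indole-3-acetonitrile, was listed at 0 in both T0 libraries, so no fold is given; it was at 0.43 and 0.33 TPM at 6 h, 1.16 and 5.71 TPM at 12 h, 16.5 and 19.8 TPM at 24 h and 14.3 and 14.5 TPM at 5 d without NPA. Its copy CYP71A13 (AT2G30770), the gene best known for this step in camalexin synthesis, was at 0.57 and 3.79 TPM at 24 h and 3.84 and 4.58 TPM at 5 d, against 0.03 and 0 TPM at T0 (2.36 ± 0.48 at 5 d, adjusted p 0.000475). CYP71A12 was above CYP71A13 in each mock library from 24 h on, and with NPA in each library of all 7 times.

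CYP71A12 and CYP71A13 are on the minus strand of chromosome 2, 8537 bases apart with 2 annotated protein-coding genes between them, and their coding sequences are 90.4% identical. At that identity the division of reads between them is uncertain. Their upstream windows from RefSeq's TAIR10.1 assembly are printed because the copies differ in level although much of this sequence is shared. Capitals mark runs of at least 12 bases found in both windows, 91 of 250 bases in each.
CYP71A12, chr2:13101372-13101621, minus strand: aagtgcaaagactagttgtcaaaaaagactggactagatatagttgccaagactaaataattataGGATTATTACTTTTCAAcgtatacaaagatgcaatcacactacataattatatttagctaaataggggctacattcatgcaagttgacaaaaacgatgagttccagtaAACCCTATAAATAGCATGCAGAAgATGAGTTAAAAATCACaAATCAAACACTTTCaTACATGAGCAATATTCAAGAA
CYP71A13, chr2:13111989-13112238, minus strand: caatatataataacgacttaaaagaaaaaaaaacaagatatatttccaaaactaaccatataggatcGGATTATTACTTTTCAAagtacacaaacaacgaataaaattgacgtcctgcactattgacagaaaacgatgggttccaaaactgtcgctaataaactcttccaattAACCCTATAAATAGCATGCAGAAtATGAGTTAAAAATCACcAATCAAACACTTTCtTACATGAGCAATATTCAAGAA
The windows were 67.7% identical when aligned, the highest value among the neighbouring pairs compared, and neither held the G-box or W-box letters.

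Over all branches, 28 of the 41 tested members rose and 2 fell at 6 h, 27 and 0 at 12 h, 25 and 1 at 24 h, 19 and 1 at 2 d, 17 and 4 at 3 d, 14 and 3 at 4 d, and 19 and 4 at 5 d. In the fits without 1 T0 library each, 26 members rose in both fits at 6 h (all genes 13.5%), 22 at 12 h (9.91%), 18 at 24 h (17.3%), 10 at 2 d (18.7%), 8 at 3 d (23.9%), 10 at 4 d (25.5%) and 11 at 5 d (28.9%). Of the 20 aliphatic genes these were 17, 15, 10, 4, 2, 2 and 2. The early calls thus rest less on 1 T0 library than the late ones. Leaving out mock replicate 2 of 2 d gave 13 calls at 2 d, and leaving out mock replicate 2 of 5 d gave 15 at 5 d.

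Scaling matters for the late times. The median gene was above T0 at each time, and TMM factors moved that median to between 0.01 and 0.06 and quantile normalization to between -0.03 and -0.07 on the log2 scale. With TMM factors the members split into 15 higher and 4 lower at 2 d, 10 and 8 at 3 d, 11 and 8 at 4 d and 11 and 7 at 5 d. With quantiles the split was 16 and 2, 13 and 7, 11 and 8, and 11 and 8. At 6 h it was 28 and 2 with TMM factors and 27 and 2 with quantiles. Of the aliphatic genes, 18 rose at 6 h with TMM factors, while at 5 d 2 rose and 4 fell. The shares of all genes called under these scalings are not given here, so whether the splits of the members stand out cannot be judged.

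NPA leaves were compared with mock leaves at each time, a comparison that does not involve T0 and asks what blocking auxin transport changed. Few members differed at single times in the fit without a replicate block. A block with a single number per replicate left these counts unchanged, and a block within times gave no more at any time. Higher counts, up to 14, came only with block numbers crossed between conditions, a choice made after seeing the data. The shares of all genes with these blocks are not given. All of these counts stand with the other alternatives at the end. At 6 h 2 were higher with NPA and 0 lower (all genes 0.881% and 0.683%), namely MYB34 and CYP79B2. At 24 h 0 were higher and 3 lower (0.421% and 1.47%), namely CYP83B1, SOT16 and PAD3. At 4 d 0 were higher and 1 lower (0.605% and 9.30%), CYP79B2, and at 5 d 0 higher and 4 lower (2.04% and 15.1%), CYP79B2, SOT16, CYP81F1 and MYB28. With limma, 0 members were called at 12 h (all genes 0.852% higher and 1.23% lower), at 2 d (0.421% and 3.27%) and at 3 d (0.600% and 5.14%). At an unadjusted p under 0.05, 8 were higher and 3 lower at 12 h, 0 and 4 at 2 d, and 1 and 0 at 3 d.

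The 2 members called at 6 h were an entry enzyme of the indole branch and an activator of that branch. Between NPA and mock libraries of 6 h, 16 of the 41 tested members had no overlap. The share among all genes is not given here, so a lack of overlap alone does not set a member apart. MYB34 was at 46.4 and 43.3 TPM in NPA leaves at 6 h, against 17.2 and 20.4 TPM in mock leaves (1.22 ± 0.24, adjusted p 0.00891). CYP79B2 was at 191 and 154 TPM in NPA leaves at 6 h, against 80.5 and 77.2 TPM in mock leaves (1.11 ± 0.26, adjusted p 0.0352). CYP79B3 was at 179 and 170.1 TPM in NPA leaves, against 99.3 and 74.9 TPM in mock leaves (1.01 ± 0.28, adjusted p 0.108), so its groups did not overlap but the test was not passed. At 12 h the log2 differences were 0.87 ± 0.24, 0.83 ± 0.26 and 1.02 ± 0.28 for MYB34, CYP79B2 and CYP79B3, none with a call. CYP81F4 was at 88.9 and 72.1 TPM in NPA leaves at 6 h, against 43.4 and 19.1 TPM in mock leaves, groups that did not overlap but differed without a call (1.44 ± 0.78, adjusted p 0.909). The same held for IGMT2, at 7.42 and 11.2 TPM in NPA leaves, against 2.24 and 1.44 TPM in mock leaves (1.85 ± 0.59, adjusted p 0.215).

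The calls at 6 h rest on single libraries. Leaving out mock replicate 1, NPA replicate 1 or NPA replicate 2 of 6 h ended the call of MYB34, at adjusted p 0.116, 0.103 and 0.0534, over a range of 0.00106 to 0.199 across alternatives. Leaving out any 1 of the 4 libraries ended that of CYP79B2, whose adjusted p ranged between 0.00697 and 0.381. Summed wound and jasmonate genes (VSP1, LOX2, JAZ1 and AOS, 4 of 4 detected) were at 8703 and 7524 TPM in NPA leaves at 6 h, against 5862 and 4378 TPM in mock leaves, and their part in these differences was not tested.

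The calls after 6 h were lower values with NPA, which was also the more common direction among all genes. The share of members called lower lay above that of all genes at 24 h (1.47%). At 4 d and 5 d it lay below that of all genes (9.30% and 15.1%). At 24 h the NPA and mock libraries did not overlap for 24 of the 41 tested members, and the share among all genes is not given here either. At 24 h PAD3 was at 4.44 and 5.11 TPM in NPA leaves, against 13.3 and 22.3 TPM in mock leaves (-1.66 ± 0.33, adjusted p 0.0102). CYP83B1 was at 221 and 225 TPM in NPA leaves at 24 h, against 355 and 446 TPM in mock leaves (-0.83 ± 0.18, adjusted p 0.0163), and SOT16 at 94.7 and 103 TPM, against 159.6 and 189 TPM (-0.80 ± 0.15, adjusted p 0.00531). The NPA and mock libraries of these 3 genes did not overlap, but leaving out mock replicate 2 or NPA replicate 1 of 24 h ended all 3 calls, and leaving out NPA replicate 2 of 24 h ended those of PAD3 and CYP83B1. CYP79B2 was at 13.7 and 18.4 TPM in NPA leaves at 4 d, against 36.5 and 31.3 TPM in mock leaves (-1.04 ± 0.26, adjusted p 0.0125), a call lost without mock replicate 1 or NPA replicate 1 of 4 d and with TMM factors (adjusted p 0.0509). At 5 d it was at 14.7 and 25.3 TPM in NPA leaves, against 32.4 and 36.9 TPM in mock leaves (-0.81 ± 0.26, adjusted p 0.0396). The 4 calls at 5 d went to 0 with TMM factors and to 0 without mock replicate 2 of 5 d. Without NPA replicate 1 of 5 d 1 was left, and without NPA replicate 2 of 5 d 2.

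At 5 d, root endodermis markers (CASP1 and MYB36, 2 of 2 detected) summed to 0.80 and 0.34 TPM in NPA leaves, against 8.42 and 10.5 TPM in mock leaves, and MYB36 was at or near 0 in mock leaves up to 2 d. Summed guard and myrosin cell markers (FAMA, MYB60, TGG1 and TGG2) were at 2256 and 2977 TPM in NPA leaves, against 1796 and 1815 TPM in mock leaves. Nearly all of these sums came from TGG1 and TGG2, at means of 2079 and 511 TPM in NPA leaves and 1476 and 310 TPM in mock leaves. TGG1 and TGG2 are myrosinase genes and also among the other pathway genes below, so the sums say little of FAMA and MYB60. The part of these cell types in the differences at 5 d was not tested.

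**Figure D5:**
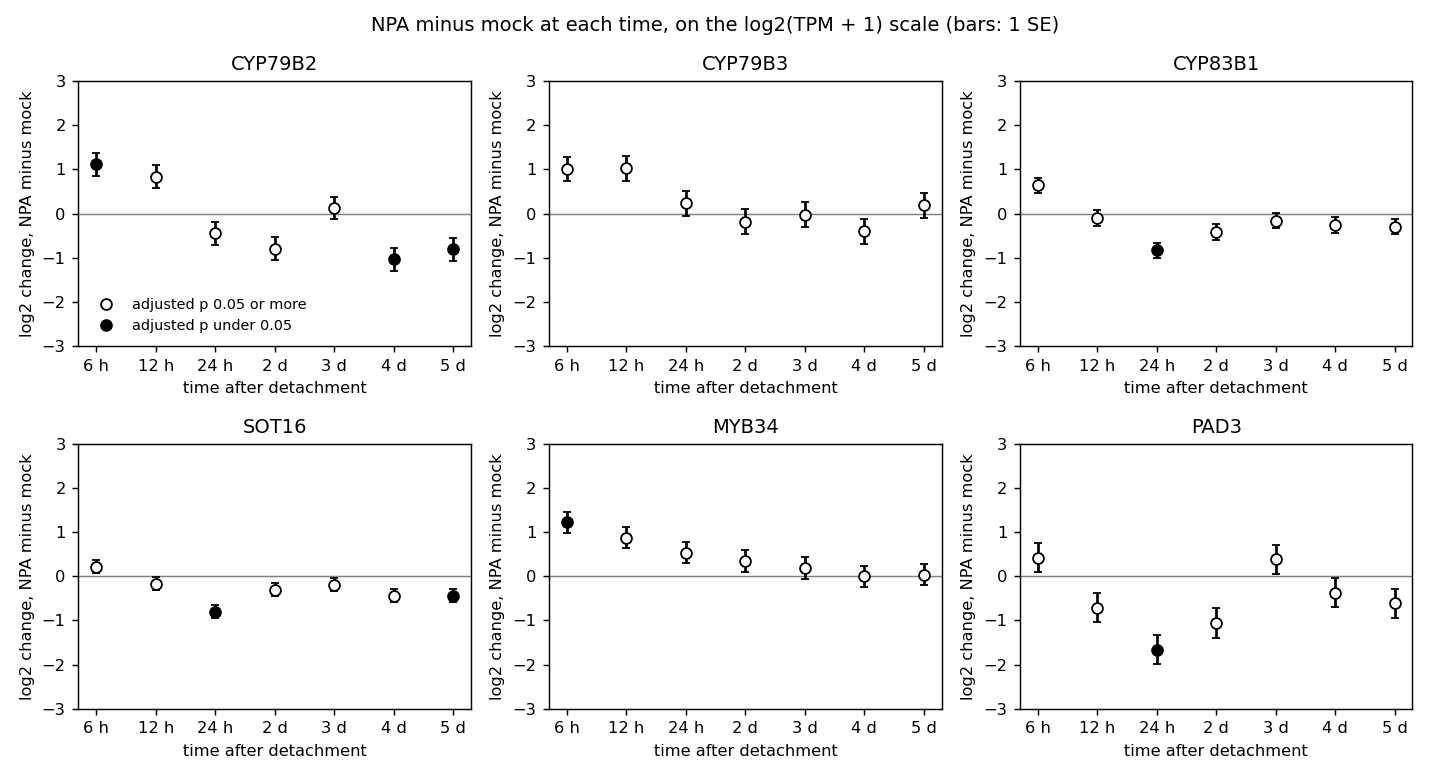
Log2 difference of NPA and mock leaves (y axis, log2(TPM + 1) scale, with standard error) at each of the 7 times (x axis) for CYP79B2, CYP79B3, CYP83B1, SOT16, MYB34 and PAD3 (panels), filled where the adjusted p is under 0.05. CYP79B2 runs between 1.11 at 6 h and -1.04 at 4 d, and MYB34 is above 0.8 at 6 h and 12 h and near 0 at 4 d and 5 d.

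CYP79B2 and CYP83B1 were the 2 members whose NPA difference varied between times in the moderated F test of limma, with adjusted p 0.00178 and 0.0236, where 5.86% of all genes passed. CYP79B2 was higher with NPA at 6 h and lower at 4 d and 5 d. Of CYP83B1 the log2 difference was 0.64 ± 0.18 at 6 h and -0.83 ± 0.18 at 24 h. Leaving out 1 library left 1 to 3 such members; the count was 1 without mock replicate 2 of 6 h, mock replicate 2 of 24 h, either NPA library of 6 h or NPA replicate 1 of 24 h.

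Averaged over the 7 times, 6 members were higher and 8 lower with NPA (all genes 6.60% and 30.6%). The higher ones were MYB34 (0.46 ± 0.09, adjusted p 0.000684), MYB76 (0.46 ± 0.12), CYP81F4 (0.87 ± 0.29), BCAT4 (0.49 ± 0.17), MAM1 (0.37 ± 0.14) and FMOGS-OX1 (0.28 ± 0.09). The lower ones were SOT16 (-0.31 ± 0.06, adjusted p 0.000292), CYP83B1 (-0.20 ± 0.07), CYP81F1 (-0.29 ± 0.11), CYP81F2 (-0.89 ± 0.25), CYP81F3 (-0.22 ± 0.06), CYP71A13 (-0.63 ± 0.18), PAD3 (-0.52 ± 0.12) and MYB28 (-0.18 ± 0.05). The 4 aliphatic genes with higher means were BCAT4, MAM1, FMOGS-OX1 and the activator MYB76, while MYB28 was lower. TMM factors gave 10 higher and 5 lower, and so did quantiles. The calls of CYP83B1 and CYP81F1 were lost under both, that of MYB28 under TMM factors, and those of CYP81F3 and CYP71A13 under quantiles. Leaving out 1 library ended the call of MAM1 for 19 of the libraries, of CYP81F1 for 21, of BCAT4 for 14, of CYP81F4 for 7 and of FMOGS-OX1 for 1. The share of members that was lower lay below that of all genes.

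Another 41 genes of regulation, precursor supply, further synthesis steps, transport and breakdown were listed beside the members, of which 40 were tested and AOP3, a side-chain dioxygenase, was not. Relative to T0, 26 rose and 1 fell at 6 h, 19 and 0 at 12 h, 22 and 0 at 24 h, 25 and 1 at 2 d, 21 and 2 at 3 d, 19 and 3 at 4 d, and 19 and 3 at 5 d. With NPA the counts of higher and lower were 1 and 0 at 6 h, 2 and 1 at 12 h, 2 and 3 at 24 h, 2 and 1 at 2 d, 2 and 1 at 3 d, 0 and 1 at 4 d, then 2 and 2 at 5 d. For these comparisons too the shares of all genes are given above, at 5 d 2.04% higher and 15.1% lower. Averaged over times 12 were higher and 3 lower (all genes 6.60% and 30.6%).

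The largest called changes of these genes at 5 d without NPA were in NIT2, ATSDI1, IGMT5 and NIT3. NIT2 and NIT3 belong to a family of close copies, among which reads may be divided. NIT2, a nitrilase, was at 95.6 and 82.3 TPM in mock leaves at 5 d, against 0 and 0.09 TPM at T0 (6.42 ± 0.48, adjusted p 6.5e-09). ATSDI1, a repressor of aliphatic glucosinolate genes that is induced by sulfur deficiency, was at 203 and 169 TPM, against 2.01 and 0.87 TPM at T0 (6.30 ± 0.50, adjusted p 1.4e-08). IGMT5, which methylates at position 1 of the indole ring, was at 69.8 and 98.2 TPM, against 0.26 and 35.9 TPM at T0 (3.62 ± 1.14, adjusted p 0.0127). Its T0 libraries stood far apart, and without T0 replicate 1 its difference was 1.18 ± 0.98 (adjusted p 0.347), while leaving out mock replicate 2 of 5 d gave an adjusted p of 0.0691. The nitrilase gene NIT3 was at 12.7 and 15.8 TPM, against 1.28 and 1.97 TPM at T0 (2.54 ± 0.27, adjusted p 4.7e-07).

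With NPA at 5 d, the largest called differences were in PYK10, GTR2, NAC042 and ESP. PYK10, a beta-glucosidase of ER bodies found mostly in roots and seedlings, fell to 7.89 and 12.4 TPM in NPA leaves, against 59.7 and 76.8 TPM in mock leaves (-2.66 ± 0.38, adjusted p 6.3e-05). GTR2, a glucosinolate importer, was at 47.2 and 50.2 TPM in NPA leaves, against 20.9 and 24.4 TPM in mock leaves (1.08 ± 0.28, adjusted p 0.0123), a call that ended on leaving out either mock library or NPA replicate 2 of 5 d (adjusted p 0.0504 to 0.0803). GTR2 was also the 1 such gene called at 6 h, at 171 and 151 TPM in NPA leaves, against 24.4 and 14.8 TPM in mock leaves (3.02 ± 0.28, adjusted p 5.1e-06). NAC042, an activator of camalexin genes, fell to 1.62 and 2.12 TPM in NPA leaves, against 4.96 and 4.32 TPM in mock leaves (-0.98 ± 0.20, adjusted p 0.002). ESP, whose protein can steer glucosinolate breakdown to nitriles, was at 54.9 and 48.4 TPM in NPA leaves, against 25.4 and 28.3 TPM in mock leaves (0.92 ± 0.23, adjusted p 0.00921). Its call ended without mock replicate 1 or NPA replicate 1 of 5 d. Whether ESP is active in these Col-0 leaves was not tested, and no breakdown product was measured here.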

How the data were processed

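The tools named in the submitters' processing notes are RSEM 1.3.2, STAR 2.7.2b and Trim Galore 0.5.0, with TAIR10 as the build; their settings are not given in the sources used here. The authors deposited 2 tables of TPM per gene, one per culture condition, in which the T0 columns are identical; each library sums to about 1000000. Library groups follow the GEO titles. A gene was tested if it reached 1 TPM in 2 or more libraries, and log2(TPM + 1) of the deposited values was fitted in limma 3.58.1 (R 4.3.3; lmFit, eBayes with trend) with a mean per group over all 30 libraries, 15 residual degrees of freedom. Tests were two-sided, with Benjamini-Hochberg adjustment within a comparison and calls at adjusted p under 0.05. The fit was tested on simulated data. Members and lists were chosen with earlier results of these data known. All members may be named; of the other pathway genes, up to 4 called with the largest absolute difference are named per comparison at 5 d. Gene positions, windows and motifs come from RefSeq's TAIR10.1. The depth is unknown, because TPM holds no counts. Alternatives were the pseudocount, filters, TMM factors, quantiles, replicate blocks, only the libraries compared, and each library left out.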

Additional observations from a re-analysis of the deposited data

Results flagged for a closer look

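CYP79B2 drew attention because its difference between NPA and mock leaves changed with time, with an adjusted p of 0.00178 in the test of the difference itself. It was at 191 and 154 TPM in NPA leaves at 6 h, against 80.5 and 77.2 TPM in mock leaves, and at 13.7 and 18.4 TPM in NPA leaves at 4 d, against 36.5 and 31.3 TPM in mock leaves. CYP83B1 did so with an adjusted p of 0.0236. It was at 335 and 321 TPM in NPA leaves at 6 h, against 246 and 180.3 TPM in mock leaves, and at 221 and 225 TPM in NPA leaves at 24 h, against 355 and 446 TPM in mock leaves. The clock gene CCA1 was at 2.39 and 0.53 TPM in NPA leaves at 6 h, against 0.32 and 1.40 TPM in mock leaves, and at 2.34 and 10.5 TPM in NPA leaves at 24 h, against 12.1 and 2.07 TPM in mock leaves. Its part was not tested.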

How the results depend on the processing

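Under the alternatives tried no called difference of a single member changed sign, while the split of higher and lower calls moved with the scaling, as given above. The main fit gave 248 called results of single members. Counted once per result and alternative, the call was kept 3330 times and lost 513 times. Counts of members called that moved by over 1.5 times are these. For NPA against mock, a pseudocount of 5 gave 1 at 12 h. A mean TPM of at least 5 gave 1 at 6 h, 1 at 5 d and 1 member with a difference between times. TMM factors gave 0 at 4 d and 0 at 5 d, and quantiles gave 1 at 5 d. The fit on only the libraries compared gave 0, 3, 3, 2, 3, 7 and 5 for mock against T0 in the order of times, and for NPA against mock 0 at 6 h, 0 at 24 h, 4 at 3 d, 6 at 4 d, 0 at 5 d and 5 for the difference between times; the 3 d count was 0 with all libraries. Called in both fits without 1 T0 library were 11 at 2 d, 10 at 3 d and 14 at 5 d for mock against T0, higher and lower together.

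Deviations of same-numbered NPA and mock libraries from their group means correlated at -0.57 at 6 h, -0.58 at 12 h, -0.36 at 24 h, 0.33 at 2 d, 0.05 at 3 d, -0.14 at 4 d and -0.14 at 5 d across genes, so the numbers were not taken to pair libraries, and whether they are crossed between conditions at some times is not known. A replicate block with a single number per replicate gave 30, 27, 26, 18, 21, 17 and 22 members for mock against T0, 2, 0, 3, 0, 0, 1 and 4 for NPA against mock, 12 for the mean over times, 30 for 5 d against 6 h in mock leaves and 30 in NPA leaves, and 2 for the difference between times. A replicate block within times gave 1, 0, 1, 0, 0, 1 and 1 for NPA against mock, 18 for the mean and 1 for the difference between times. With the block numbers crossed where the deviations correlated below -0.1, chosen after seeing the data, it gave 4, 14, 9, 3, 1, 7 and 10, 25 for the mean and 8 for the difference between times. The shares of all genes called with these blocks are not given here. Leaving out each library in turn gave ranges of 27 to 31 at 6 h, 22 to 32 at 12 h, 21 to 29 at 24 h, 13 to 24 at 2 d, 14 to 22 at 3 d, 13 to 23 at 4 d and 15 to 25 at 5 d for mock against T0. For NPA against mock it gave 0 to 1 at 6 h, 0 to 0 at 12 h, 0 to 3 at 24 h, 0 to 0 at 2 d, 0 to 0 at 3 d, 0 to 1 at 4 d, 0 to 3 at 5 d, 11 to 15 for the mean and 1 to 3 for the difference between times. For 5 d against 6 h it gave 23 to 27 in mock leaves and 23 to 31 in NPA leaves. The cause was not tested; where a group keeps 1 library, that library is assumed to vary like the others.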
